A study of Mus musculus with 10 samples.

Results

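The 10 genes described here serve the cell's defence against oxidants and its handling of heme and iron: Hmox1, Fth1, Ftl1, Prdx1, Txnrd1, Srxn1, Gclm, Gsr, Slc7a11 and Nqo1. They were taken by symbol from the 31053 genes in the count files, and all 10 were found. The list was selected on earlier results of these same libraries, and since it is not recorded which values were used, every level by class and every difference between genotypes counts as used. Both are therefore given as a description, and a p from the fit over all genes only places a member among the genes tested. Counts are unique molecular identifiers (UMIs, 1 per captured RNA molecule), summed over the cells of a class in each library and given as CPM, the count per 1000000 UMIs of that sum without Actb.

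The data are single-cell RNA counts of tumors that grew for 21 days from the mouse mammary carcinoma line E0771, implanted in the mammary fat pad of 16-week-old females. Tumors came from wild-type (WT) littermates or from EC-AGO1-KO mice (KO), in which Ago1 flox/flox was recombined by VE-Cadherin-Cre (Cdh5-cre), both on a C57BL/6 background. The implanted tumor cells carried no deletion, and the study describes the deletion as restricted to endothelial cells, so by that account macrophages, monocytes and tumor cells of both groups kept Ago1. There were 5 WT libraries from 5 tumors and 5 KO libraries from 7 tumors. Batch 1 held 1 library of each group, and batch 2 held WT 1, 3, 4 and 5 and KO 1, 2+3, 4 and 5+6, where KO 2+3 and KO 5+6 each pooled 2 tumors.

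Most of these genes belong to the program switched on by NRF2 (encoded by Nfe2l2), a transcription factor held down by KEAP1 until oxidants or electrophiles modify KEAP1. NRF2 binds with small MAF proteins to antioxidant response elements, and BACH1, which is released by heme, occupies the same elements as a repressor. In macrophages the program meets iron recycling: heme from engulfed red cells is opened by heme oxygenase, and the iron set free is stored in ferritin or exported.

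The promoter stretches below are shown because they hold the core letters of an antioxidant response element, TGACNNNGC, close upstream of a RefSeq start of 3 members. Promoters of 8 of the 10 members were present in the RefSeq table of GRCm38.p6, in 11 windows of 250 bases before to 50 bases after a gene start, and those of Hmox1 and Gsr were not among them. On either strand the core was found in 4 members: Gclm, Prdx1, Txnrd1 and Srxn1, where it lies 29 bases past the start. It occurs in 12.4% of 32851 promoters of that length. The AP-1 letters TGAGTCA were found in Prdx1 and Srxn1 against 5.2% of promoters. In Prdx1 the match 131 bases upstream overlaps the core, and the match 237 bases upstream does not. Each stretch is 30 bases of the plus strand, 5′ to 3′, with the core in capitals, read there as its reverse complement. The Txnrd1 stretch lies within the annotated gene span, upstream of an internal start.
Gclm, chr3:122245413-122245442, 134 bases upstream: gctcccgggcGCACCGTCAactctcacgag
Prdx1, chr4:116685456-116685485, 133 bases upstream: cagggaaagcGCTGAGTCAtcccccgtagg
Txnrd1, chr10:82859104-82859133, 92 bases upstream: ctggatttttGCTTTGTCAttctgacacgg
A match of letters is not evidence of binding, and these libraries measure RNA only.

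A barcode counted as a cell if it held 200 to 7000 genes and if mitochondrial genes took no more than 10% of its UMIs, which left 65298 cells. Clusters were named from marker genes, which gave 55806 tumor-like, 1620 macrophage-like and 375 monocyte-like cells. All 10 macrophage, 8 monocyte and 8 tumor markers were detected in their own class in both batches. Since the same markers had named the clusters, and any UMI in the pooled sum counted, that detection is no check on the names. The batches differed in depth: the median was 4049 and 3862 UMIs per cell in batch 1 and 595 to 1142 in batch 2, and libraries shared 0 to 28 barcodes. Macrophage-like cells gave 733598 and 830020 UMIs in batch 1 but 6623 to 98119 in batch 2, so a level of 100 CPM there rests on very few molecules. Ago1 itself could not check the labels, since endothelial-like cells held 0 Ago1 UMIs in 69 WT and 130 KO cells and the 3′ tags need not cover the deleted exons.

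Hmox1 (chr8:75093621-75100589 in mm10), the inducible heme oxygenase that opens heme into biliverdin, carbon monoxide and iron, had its highest level per UMI in macrophage-like cells. In batch 2 its mean level was 379 ± 263 CPM (SD, n = 8 libraries) in macrophage-like cells and 31.4 ± 26.6 CPM in tumor-like cells, a ratio of 12.1, and the macrophage-like level was the higher in 8 of 8 libraries. In batch 1 the ratio was 9.31. Most Hmox1 molecules were nonetheless in the far more numerous tumor-like cells, with 1442 UMIs against 136 in macrophage-like cells of batch 2. Of the other classes in batch 2, fibroblast-like cells averaged 109 CPM (38 UMIs), monocyte-like cells 99.98 CPM (4 UMIs) and T-like cells 4.31 CPM (4 UMIs). The monocyte-like level was above the tumor-like level in 2 of 8 libraries of batch 2, from too few UMIs to order the classes. In batch 1 monocyte-like cells averaged 98.98 CPM (34 UMIs), 2.46 times the tumor-like mean and higher in 2 of 2 libraries. Barcodes without a cell (at most 50 UMIs) held 25.9 to 147 CPM in batch 2, below the macrophage-like level of the same library in all 8.

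Fth1 (chr19:9980598-9985098) and Ftl1 (chr7:45457944-45459884), the heavy and light chains of the ferritin shell that stores iron, gave the most UMIs of all members in each of the 3 main classes in batch 1. In batch 2 Fth1 still did, while Ftl1 lay below Gsr in monocyte-like cells and below Gsr and Prdx1 in tumor-like cells. In batch 2 Fth1 averaged 1730 CPM in macrophage-like, 1004 CPM in monocyte-like and 465 CPM in tumor-like cells, and Ftl1 averaged 834, 334 and 116 CPM in the same order. Both were higher in macrophage-like than in tumor-like cells in 8 of 8 libraries, by 3.72 times for Fth1 and 7.18 times for Ftl1. Empty barcodes of batch 2 held 718 to 1970 CPM of Fth1. The macrophage-like Fth1 levels of batch 2 ran from 798 to 2567 CPM as counted and from 633 to 2301 CPM with free RNA subtracted. The files also list the pseudogene Ftl1-ps1 in a row of its own, and reads shared with ferritin pseudogenes leave both levels uncertain.

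Prdx1 (chr4:116685544-116700822), a peroxiredoxin that reduces hydrogen peroxide, was expressed in all 3 classes, with a batch 2 mean of 472 ± 253 CPM in macrophage-like, 205 CPM in monocyte-like and 192 ± 22.4 CPM in tumor-like cells. Macrophage-like cells were higher than tumor-like cells in 8 of 8 libraries, by 1.06 to 5.48 times. Txnrd1 (chr10:82833951-82897712), the reductase that recharges thioredoxin, averaged 59.9 CPM in macrophage-like and 54.8 CPM in tumor-like cells. Srxn1 (chr2:152105516-152111376), the sulfiredoxin that rescues over-oxidised peroxiredoxins, averaged 18 and 16.6 CPM. For Txnrd1 and Srxn1 the macrophage-like values of batch 2 rest on 23 and 6 UMIs, too few to order the classes.

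The glutathione genes had a different distribution. Gsr (chr8:33652523-33698163), glutathione reductase, was lowest in macrophage-like cells among the 3 main classes: its batch 2 mean was 37.2 CPM there, 211 CPM in tumor-like cells and 520 CPM in monocyte-like cells, the macrophage-like level being lower than that of tumor-like cells in 8 of 8 libraries. Monocyte-like cells exceeded tumor-like cells in 7 of 8 libraries of batch 2 (26 UMIs) and in both of batch 1, where the ratio of means was 3.24. Slc7a11 (chr3:49892526-50443614), the cystine importer of system xc-, was nearly absent from tumor-like cells, with a mean of 1.40 CPM in batch 1 and 6.77 CPM in batch 2. In batch 1, whose empty barcodes held 14.7 and 17.8 CPM, it reached 426 CPM (64 UMIs) and 174 CPM (32 UMIs) in monocyte-like cells and 45.0 and 50.6 CPM in macrophage-like cells. In batch 2 it averaged 317 CPM in monocyte-like cells from 17 UMIs and 116 CPM in macrophage-like cells, but empty barcodes held 81.0 to 235 CPM, and the macrophage-like level exceeded that of its own library's empty barcodes in 1 of 8 libraries, WT 5 (271 against 121 CPM).

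Gclm (chr3:122245557-122270732), the modifier subunit of the enzyme that starts glutathione synthesis, averaged 36.3 CPM in macrophage-like and 67.4 CPM in tumor-like cells of batch 1, and 57.9 and 53.6 CPM in batch 2. Nqo1 (chr8:107388225-107403206), a quinone reductase and a common readout of NRF2, was at 11.2 CPM in batch 1 and 23.4 CPM in batch 2 in tumor-like cells. Macrophage-like cells of batch 2 held 1 Nqo1 UMI in all, and monocyte-like cells held 0.

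**Figure D1:**
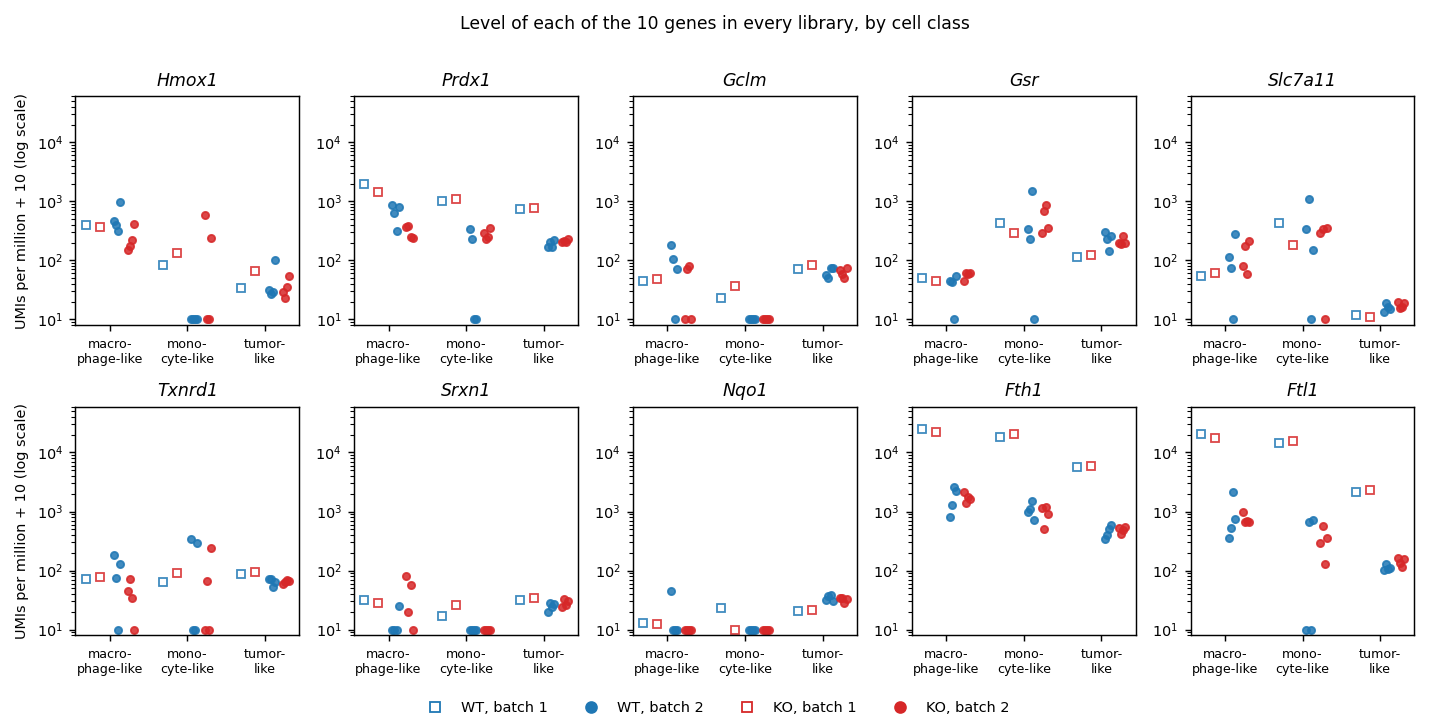
Level of each of the 10 genes in macrophage-like, monocyte-like and tumor-like cells, in CPM plus 10 on a log axis; each point is a library, squares are batch 1 and circles batch 2, WT blue and KO red. Hmox1, Fth1 and Ftl1 sit higher in macrophage-like than in tumor-like cells, Slc7a11 and Gsr are high in monocyte-like cells, and points at 10 are libraries with 0 UMIs.

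The batch moved some members far more than others. In macrophage-like cells the mean of batch 1 was 23.0 times that of batch 2 for Ftl1, 13.5 times for Fth1 and 3.61 times for Prdx1, whereas it was 0.989 times for Hmox1 and 1.00 times for Gsr. Tumor-like cells showed the same order, with 19.2, 12.3, 3.88 and 1.28 times for Ftl1, Fth1, Prdx1 and Hmox1. Over the same macrophage-like sums, ribosomal protein genes took 15.4% and 17.1% of UMIs in batch 1 and 1.25% to 2.4% in batch 2, and Actb 3.18% to 3.51% and 17.3% to 22.3%. The batches also differed in sequencer and depth, which cannot be told apart, so genotypes were compared within batch or with batch as a term.

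The comparison of KO with WT asks whether the loss of Ago1 in endothelial cells goes with a different oxidant or iron program in the tumor's macrophages and tumor cells. In sums over a class, fewer molecules per cell and fewer cells that express a gene cannot be told apart. Hmox1 in macrophage-like cells was at 451 CPM in WT 1 (13 UMIs), 389 CPM in WT 3 (12 UMIs), 302 CPM in WT 4 (2 UMIs) and 963 CPM in WT 5 (64 UMIs). It was at 142 CPM in KO 1 (4 UMIs), 163 CPM in KO 2+3 (16 UMIs), 215 CPM in KO 4 (9 UMIs) and 410.0 CPM in KO 5+6 (16 UMIs). The KO levels lay lower, with a mean of 232 ± 122 CPM against 526 ± 298 CPM (SD, n = 4 each), but KO 5+6 exceeded 2 WT libraries and WT 5 stood above all others. In batch 1 the level was 394 CPM in WT (95% counting interval 350 to 442) and 357 CPM in KO (317 to 400), and the intervals overlapped.

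Prdx1 in macrophage-like cells was at 867, 616, 302 and 798 CPM in WT 1, 3, 4 and 5 (25, 19, 2 and 53 UMIs). The KO libraries gave 354 CPM in KO 1, 367 CPM in KO 2+3, 238 CPM in KO 4 and 231 CPM in KO 5+6 (10, 36, 10 and 9 UMIs). All 4 KO values were below 3 of the WT values, and the groups overlapped only through WT 4, which had 23 macrophage-like cells. The WT mean of batch 2 was 646 ± 252 CPM against 297 ± 72.9 CPM for KO, and batch 1 went the same way with 1993 CPM in WT (1892 to 2098) and 1408 CPM in KO (1329 to 1492).

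The ferritin chains showed no such order. Fth1 in macrophage-like cells was at 798, 1297, 2567 and 2243 CPM in WT 1, 3, 4 and 5 and at 2123, 1406, 1764 and 1640.0 CPM in KO 1, 2+3, 4 and 5+6, with means of 1726 and 1733 CPM. Ftl1 was at 347, 519, 2114 and 738 CPM in the WT libraries and 955, 642, 691 and 666 CPM in the KO libraries. For both genes the KO range lay inside the WT range. The remaining 6 members had 0 to 18 UMIs in each macrophage-like sum of batch 2, and their groups overlapped.

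**Figure D2:**
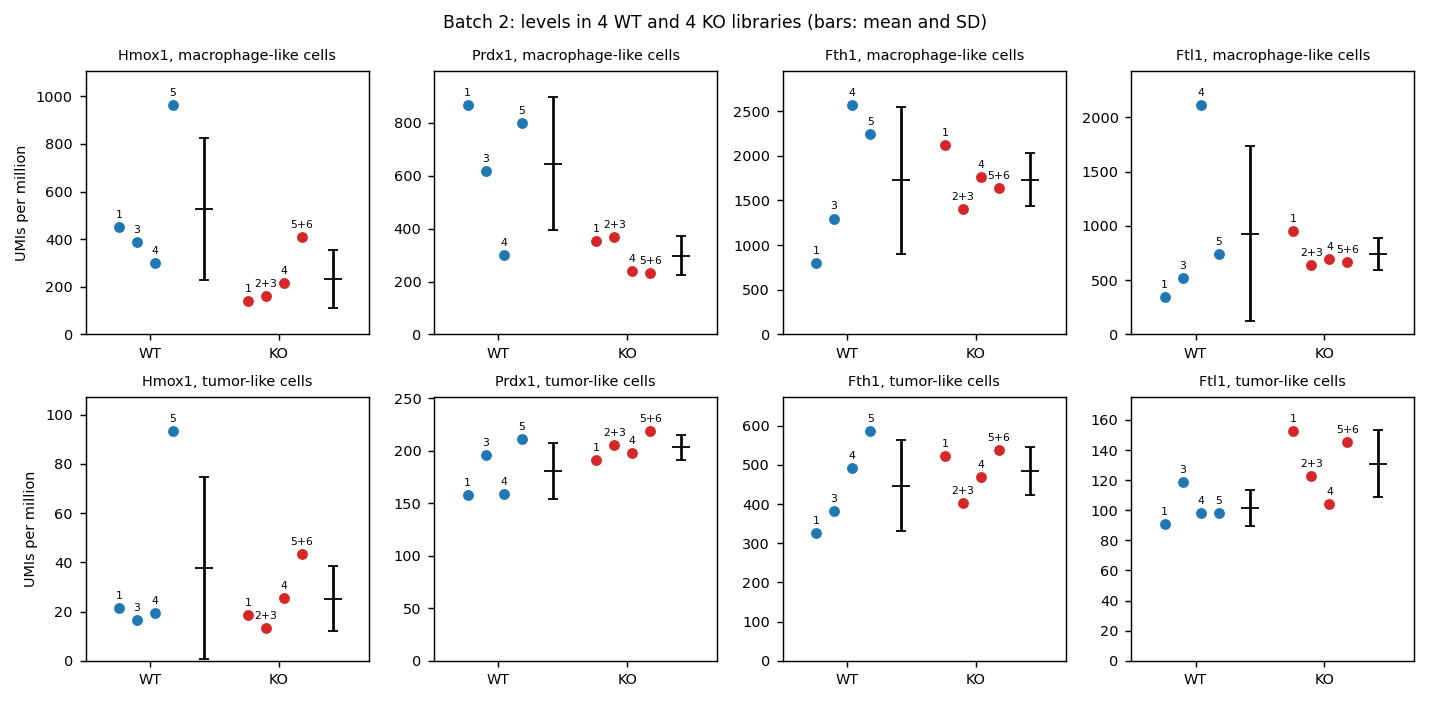
Levels of Hmox1, Prdx1, Fth1 and Ftl1 in CPM in the 4 WT (blue) and 4 KO (red) libraries of batch 2, in macrophage-like cells (upper row) and tumor-like cells (lower row); numbers are the library names and bars give mean and SD. In macrophage-like cells 3 of 4 KO libraries lie below every WT library for Hmox1, and for Prdx1 the KO libraries lie below WT 1, 3 and 5.

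Both batches were then fitted together with edgeR's quasi-likelihood test on the summed UMIs, with batch as a term. In macrophage-like cells 855 genes had enough counts to be tested, 4 of them members, and 0 genes (0%) passed an adjusted p of 0.05; 35 genes had an unadjusted p under 0.05, and DESeq2 also called 0 with 21 genes under that level. Prdx1 had a log2 fold change (KO over WT) of -0.96 ± 0.22 (SE; edgeR adjusted p = 0.0636, 5 libraries each), the smallest p of the 855. Hmox1 followed as the gene ranked 2 by p, at -0.89 ± 0.25 (edgeR adjusted p = 0.290). These were the 2 members with an unadjusted p under 0.05 and a lower level in KO, where 1.75% of all genes tested were, and no member was higher in KO at that level. Ftl1 was at -0.09 ± 0.29 and Fth1 at -0.03 ± 0.26, beside a median of -0.01 over all genes tested. The other 6 members did not pass the filter on low counts, and no member separated the groups in batch 2 without overlap, as 2.22% of genes tested did.

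With batch 2 alone 776 genes were tested and 5 passed, 3 of them lower in KO (0.387%), among them Hmox1 at -1.52 ± 0.33 (edgeR adjusted p = 0.0103, 4 libraries each) and Prdx1 at -1.23 ± 0.28 (edgeR adjusted p = 0.0110). Hmox1 leaned on a single library. Without WT 5 it was at -0.49 ± 0.25 in the fit of both batches (edgeR adjusted p = 1.00) and at -0.83 ± 0.47 in batch 2 alone (edgeR adjusted p = 0.986). Prdx1 without WT 5 was at -0.87 ± 0.25 (edgeR adjusted p = 0.792) and at -1.13 ± 0.33 in batch 2 alone (edgeR adjusted p = 0.149). Without WT 4, the library with 2 UMIs of each gene, Prdx1 passed at -0.97 ± 0.21 (edgeR adjusted p = 0.0154) and Hmox1 did not, at -0.91 ± 0.24 (edgeR adjusted p = 0.126). Over every setting tried the fold change stayed negative, from -1.56 to -0.44 for Hmox1 in 24 settings and from -1.29 to -0.75 for Prdx1 in 26, the groups being nearly the same libraries each time.

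**Figure D3:**
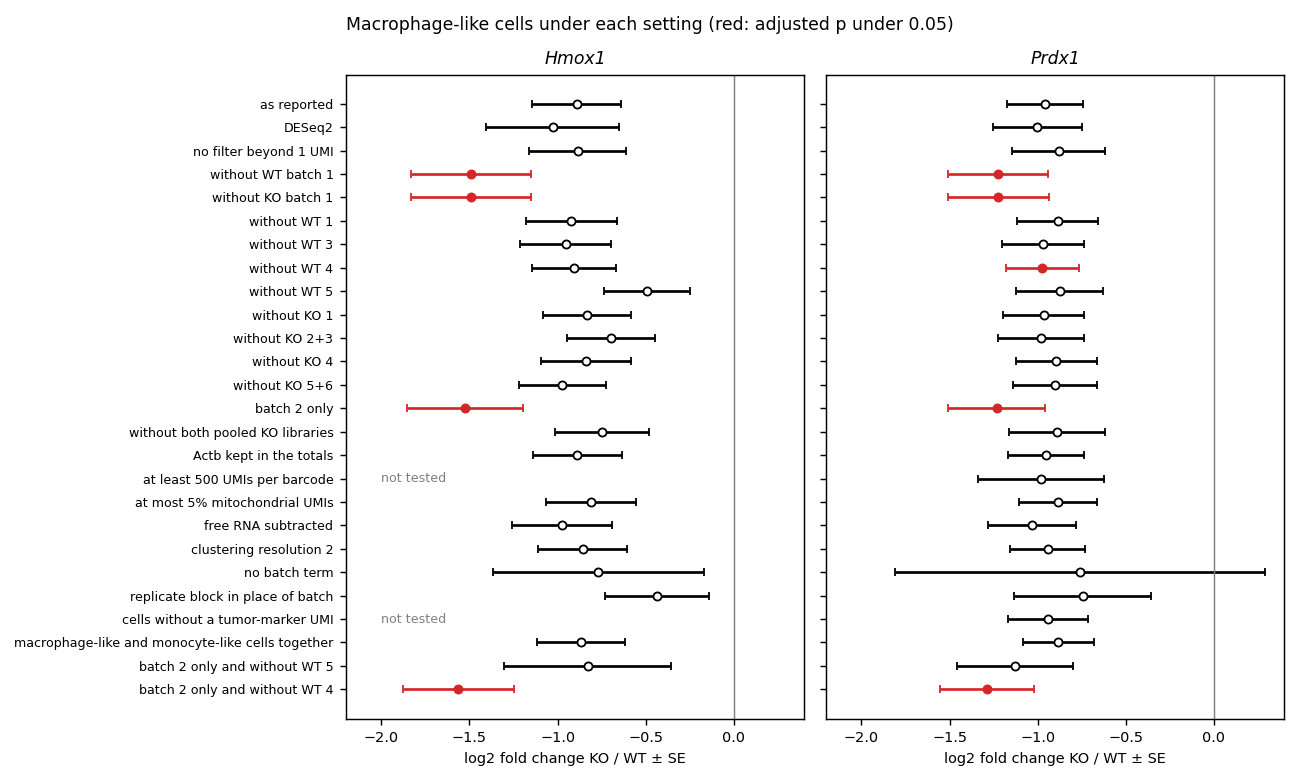
Log2 fold change of KO over WT, with SE, for Hmox1 (left) and Prdx1 (right) in macrophage-like cells under each setting; red marks an adjusted p under 0.05. All points lie left of 0, the red points are fits that lack a batch 1 library or WT 4, and Hmox1 comes closest to 0 without WT 5 (-0.49) and with the replicate block (-0.44).

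RNA of other cells was measured beside these differences. Pvt1, a transcript that marks the tumor cells, was at 624 to 1057 CPM in macrophage-like sums of the 4 WT libraries of batch 2 and at 460 to 615 CPM in the 4 KO libraries, without overlap. The 8 tumor markers together gave 3398 to 4681 CPM in WT and 3047 to 4352 CPM in KO, which overlap. Empty barcodes of batch 2 themselves held 145 to 295 CPM of Prdx1 in WT and 106 to 137 CPM in KO libraries, without overlap. For Hmox1 they held 33.2 to 147 and 25.9 to 51.4 CPM, which overlap. How many of all genes separate the groups in empty barcodes was not counted, so the Prdx1 separation cannot be called particular to it. With free RNA subtracted in proportion to such transcripts Hmox1 was at -0.97 ± 0.28 and Prdx1 at -1.03 ± 0.25, as large as before. In batch 1 the erythroid markers of macrophage-like cells summed to 499 CPM in the WT and to 16.9 CPM in the KO library. In batch 2 that sum was 0 to 15.1 CPM in WT and 0 to 35.4 CPM in KO, and its part in the batch 1 values was not tested.

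Tumor-like cells gave the deepest sums, and all 10 members were tested there among 11511 genes, of which 0 (0%) passed; 636 had an unadjusted p under 0.05 in edgeR, and DESeq2 called 1 gene with 566 under that level. No member had an unadjusted p under 0.05, where 3.15% of genes were lower in KO and 2.37% higher, and no member separated the groups of batch 2 without overlap, as 3.09% of genes did. Ftl1 came nearest at 0.28 ± 0.14 (edgeR adjusted p = 0.881), from 90.8 to 119 CPM in WT and 104 to 152 CPM in KO in batch 2. Srxn1 was at 0.22 ± 0.19, Slc7a11 at 0.22 ± 0.30, Prdx1 at 0.10 ± 0.11, Fth1 at 0.06 ± 0.16 and Gclm at 0.00 ± 0.17. Txnrd1 was at -0.01 ± 0.11, Gsr at -0.13 ± 0.16 and Nqo1 at -0.13 ± 0.16. The fold change was above 0 in 6 of the 10 members, beside 50% of all genes tested.

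Hmox1 in tumor-like cells was at 21.3, 16.7, 19.5 and 93.2 CPM in WT 1, 3, 4 and 5 and at 18.8, 13.1, 25.3 and 43.5 CPM in KO 1, 2+3, 4 and 5+6. WT 5, the library that was also highest in macrophage-like cells, stood far above the rest with 623 UMIs. The fitted value was -0.28 ± 0.46 with all libraries and 0.55 ± 0.27 without WT 5 (edgeR adjusted p = 0.795), so its sign was set by that library. The batch 1 level was 24.4 CPM (WT) and 56.2 CPM (KO).

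**Figure D4:**
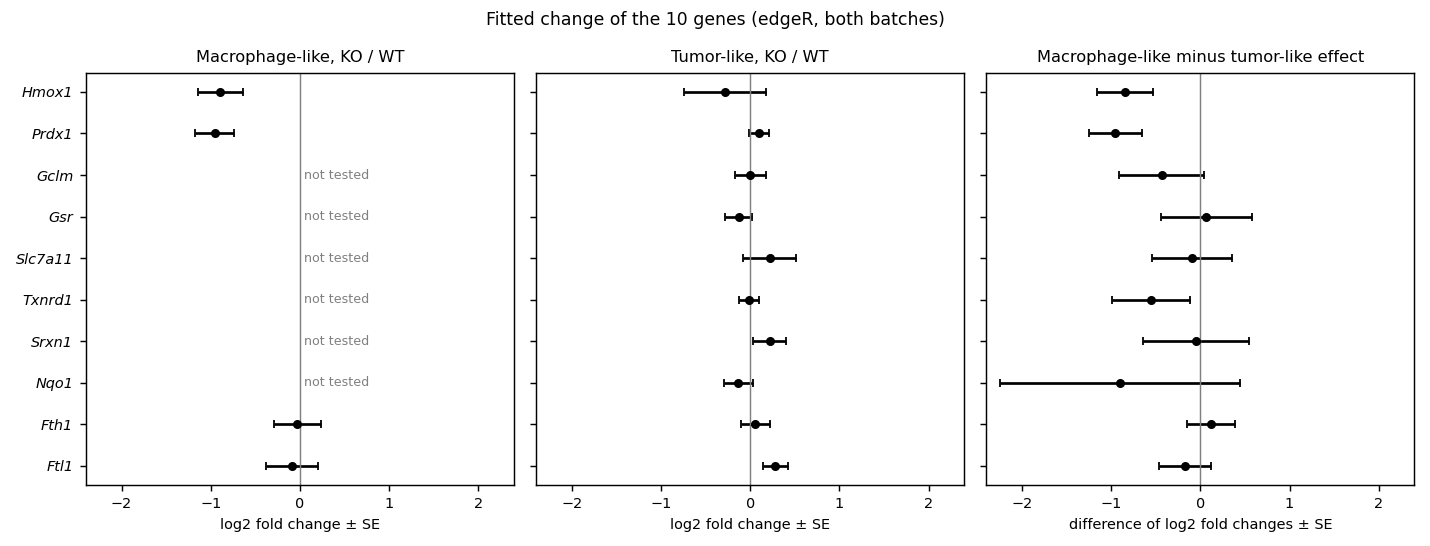
Fitted change of the 10 genes with SE from both batches: KO over WT in macrophage-like cells (left), in tumor-like cells (middle), and the difference between these effects (right); genes below the filter on low counts are marked as not tested. Hmox1 (-0.89) and Prdx1 (-0.96) lie below 0 in macrophage-like cells, and no member does so beyond its SE by as much in tumor-like cells.

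Whether the KO effect differed between the classes was tested in a single fit of both classes with the library as a block. Of 11236 genes 1 passed (0.0089%), and it was no member. The difference was -0.95 ± 0.30 for Prdx1 (edgeR adjusted p = 0.755) and -0.84 ± 0.31 for Hmox1 (edgeR adjusted p = 1.00), beside a median of 0.07 over all genes. These 2 members were among the 1.51% of genes with an unadjusted p under 0.05 and a negative difference. The other 8 members lay between -0.90 ± 1.34 for Nqo1 and 0.12 ± 0.27 for Fth1. With all libraries, no member was thus shown to respond differently in the 2 classes, while without WT 4 Prdx1 passed at -1.08 ± 0.24 (edgeR adjusted p = 0.0466).

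In monocyte-like cells only 88 genes could be tested, none of them a member. The batch 2 sums held 0 to 12 UMIs of any member per library, and WT 4, with 2 cells, was left out of the fit. In batch 1 the WT library had 426 CPM of Slc7a11 (counting interval 328 to 543) against 174 CPM (119 to 245) for the KO library, without overlap of the intervals. Gsr was at 419 CPM (322 to 536) and 277 CPM (206 to 364), overlapping. In batch 2 the WT and KO ranges of both genes overlapped, with 0 to 1101 CPM in WT and 0 to 342 CPM in KO for Slc7a11, so the batch 1 order has no replicate check.

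Within the macrophage-like cells the members were uneven. The members and the other listed pathway genes were kept out of the genes used for clustering. Since the members were selected on these same libraries, differences between clusters are still a description. Among the 7 macrophage-like clusters of batch 1, Hmox1 was highest in m1_1 (858 CPM, 96 cells), led by Ccl8, F13a1, Cbr2 and Folr2, and next in m1_2 (597 CPM, 79 cells), led by hemoglobin genes, Mmp12 and Pdpn. The other 5 held 37.0 to 208 CPM. The same 2 clusters had the highest Prdx1 levels (2103 and 2582 CPM), and m1_2 had the highest Slc7a11 (186 CPM). In batch 2 cluster m2_2 (224 cells), led by Mmp12, Pdpn, Folr2 and Fn1, was highest for Hmox1 (765 CPM), Prdx1 (964 CPM) and Fth1 (2750 CPM) among 5 macrophage-like clusters. The highest Hmox1 and Prdx1 thus fell in the same cluster in batch 2, while in batch 1 Hmox1 was highest in m1_1 and Prdx1 in m1_2. Those 2 clusters differed: Folr2 was at 384 CPM in m1_1 and 76.1 CPM in m1_2, and Mmp12 at 89.3 and 1495 CPM. In m2_2 they were at 198 and 780 CPM. These are sums over clusters and do not show the genes in the same cells.

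Gsr was highest in monocyte-like clusters in both batches, and Slc7a11 in batch 1. In batch 1 m1_5, led by Plac8, Vcan and Chil3, was at 407 CPM of Slc7a11 and 428 CPM of Gsr, and m1_6, led by Plac8, Ly6i, Adgre4 and Ace, was at 395 and 658 CPM. The interferon-rich m1_3 had less of both, with 142 and 88.1 CPM. In batch 2 m2_4 was at 315 and 482 CPM. Among the clusters named macrophage-like in batch 2, m2_1 had 386 CPM of Slc7a11 from 29 UMIs, more than m2_4 and the empty barcodes. Its leading genes included Il1r2, Osgin2, Mmp12, Clec4e and Plac8. Against the other myeloid clusters of its batch it had 2 monocyte markers and 0 macrophage markers raised, so its name is uncertain.

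**Figure D5:**
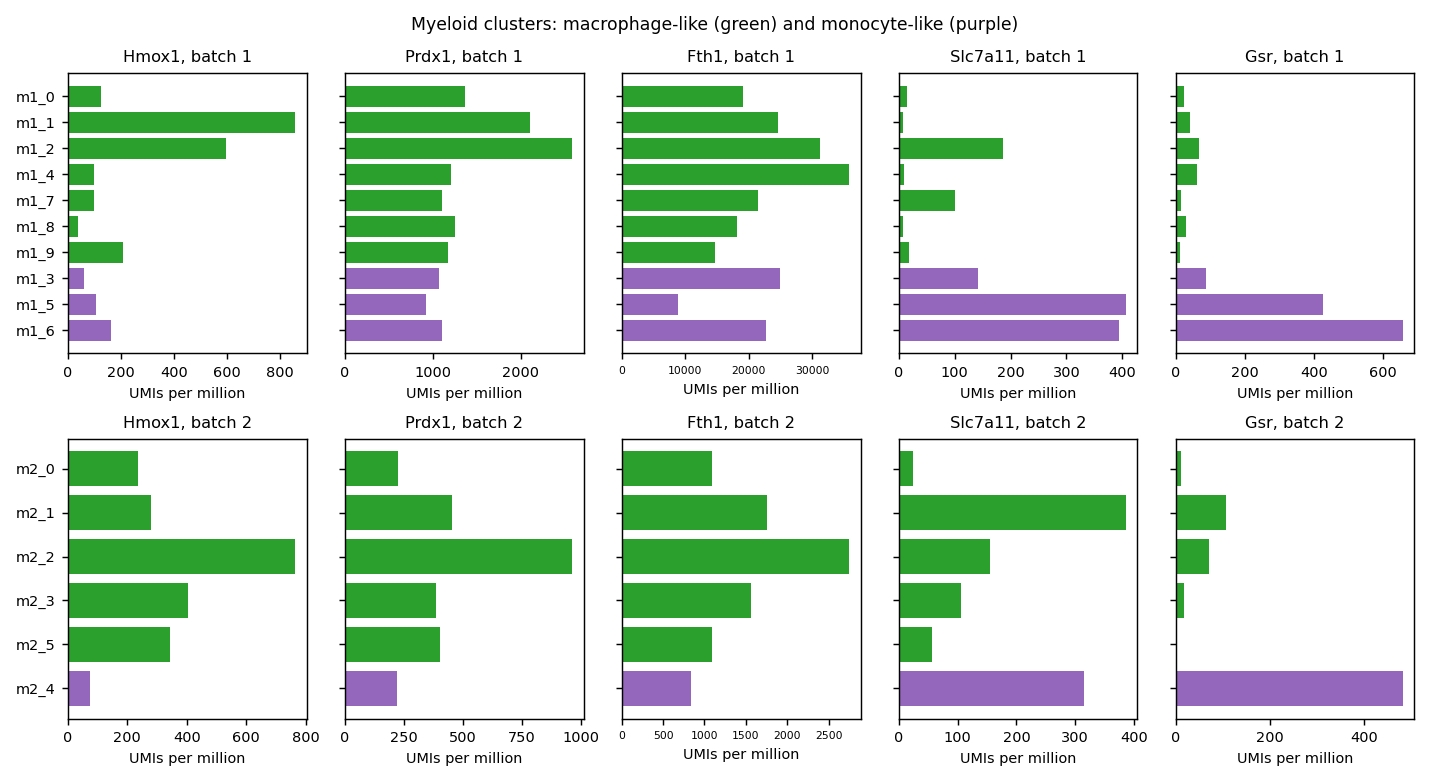
Levels of Hmox1, Prdx1, Fth1, Slc7a11 and Gsr in CPM in each myeloid cluster of batch 1 (upper row) and batch 2 (lower row), macrophage-like green and monocyte-like purple; bars are sums over cells of all libraries of a batch. Hmox1 and Prdx1 peak in m1_1, m1_2 and m2_2, Gsr peaks in monocyte-like clusters, and Slc7a11 in monocyte-like clusters of batch 1 and the macrophage-like m2_1 of batch 2.

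The share of macrophage-like cells in the clusters with the highest Hmox1 (m1_1 and m1_2 in batch 1, m2_2 in batch 2, picked after their values were seen) was 21.7% to 26.5% in the 4 WT libraries of batch 2. It was 25.5% in KO 1, 9.43% in KO 2+3, 29.9% in KO 4 and 12.5% in KO 5+6, so both pooled libraries were low and the other 2 were not. In batch 1 it was 36.8% in WT and 33.2% in KO. Inside m2_2 the summed level of Hmox1 was 1035 CPM in WT (37 UMIs) and 488 CPM in KO (17 UMIs), and outside it 557 CPM (54 UMIs) and 162 CPM (28 UMIs). Without WT 5 the WT level was 774 CPM inside (13 UMIs) and 283 CPM outside (14 UMIs). For Prdx1 the WT and KO levels were 1426 and 488 CPM inside and 495 and 278 CPM outside. In batch 1 Hmox1 gave 789 CPM (WT) and 709 CPM (KO) inside the 2 clusters, against 91.5 and 142 CPM outside. Prdx1 in batch 1 was at 2848 and 1750 CPM inside and 1338 and 1200 CPM outside. Summed over libraries, the KO level of batch 2 was the lower on both sides of the cluster border for both genes. In batch 1 it was so for Prdx1, but for Hmox1 inside alone. By library Hmox1 overlapped on both sides, with 782 CPM in KO 5+6 against 642 CPM in WT 1 inside, and 354 CPM in KO 5+6 against 171 CPM in WT 3 outside. Prdx1 overlapped outside through WT 4 (0 CPM) but not inside, where WT 4 held 2 UMIs.

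In the tumor-like cells of batch 2 a single cluster held most members at their highest. Cluster b2_3, led over the median of the other clusters by ribosomal protein genes, S100a6, Clu and Gapdh, was the highest of 9 for Hmox1 (66.2 CPM), Prdx1 (277 CPM), Gclm (71.1 CPM), Txnrd1 (74.9 CPM), Srxn1 (24.6 CPM), Fth1 (889 CPM) and Ftl1 (218 CPM), and the lowest for Nqo1 (12.9 CPM). Within libraries Prdx1, Gsr, Slc7a11, Fth1 and Ftl1 were higher in b2_3 than in other tumor-like cells in 8 of 8, Hmox1, Gclm and Txnrd1 in 7, Srxn1 in 5 and Nqo1 in 0. Ferritin differed most, with 865 against 421 CPM for Fth1 and 219 against 105 CPM for Ftl1. The share of UMIs from ribosomal protein genes moved with it, at 6.10% in b2_3 and 2.13% to 5.05% in the other clusters, and its part in the levels was not tested.

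The wider pathway was read from 6 lists with 61 further genes. In macrophage-like cells 7 of the 61 were tested, 0 passed, 6 were negative and 1 positive, and their median log2 fold change was -0.15 beside -0.01 over all genes. Pcbp2, an iron chaperone, was at -0.26 ± 0.23, and Idh1, a source of NADPH, was at -0.22 ± 0.24. Of the regulators, Nfe2l2 was at -0.15 ± 0.24 and Bach1 at -0.00, and Keap1 was not tested. In tumor-like cells 51 were tested, 0 passed, and 1 was higher and 1 lower at an unadjusted p under 0.05: Mafk, a small MAF partner of NRF2, at 0.55 ± 0.17 and Cul3, the ubiquitin ligase scaffold that KEAP1 works with, at -0.28 ± 0.10 (edgeR adjusted p = 0.881 for each). Gstm1, a glutathione transferase, was at 0.46 ± 0.41, Nfe2l2 at 0.18 ± 0.14, Keap1 at 0.07 ± 0.21 and Bach1 at -0.05 ± 0.14. No gene of the lists could be tested in monocyte-like cells.

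The genes outside the lists whose levels followed Hmox1 most closely over 47 sums of library and class were Wdfy3 (Pearson r = 0.81), Lpl (0.79) and Pdpn (0.77). The levels were log2(CPM + 10), each library was centred on its own mean, and 3939 genes were compared. The points share libraries and depth, and the contrast of macrophages with the other classes makes up much of such a value.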

How the data were processed

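The authors deposited raw UMI counts per gene and barcode for 10 single-cell libraries (10x Genomics 3′ chemistry), empty droplets included, made with Cell Ranger 7.1.0 on mm10 per the submitters' processing notes. Gene annotation and intron counting are not given in the sources used here. No column was left unmapped.

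A barcode was used if it had 200 to 7000 detected genes and no more than 10% of its UMIs from mitochondrial genes. Doublets were not removed. Cells were clustered by batch (scanpy 1.11.5, Leiden, 2000 variable genes, 30 components, 15 neighbours, resolution 1), and clusters were named from marker lists. Actb, mitochondrial genes, the members and the further listed pathway genes were kept out of the clustering genes. The naming limits (3 markers at least 2 times the other cells, Pvt1 under 75% of the tumor level) were set after clusters were seen and before genotypes were compared. Clusters within the myeloid cells were named monocyte-like if they had at least 4 raised monocyte markers. The others were named macrophage-like by default, unless tumor markers or T cell genes left them unnamed. Sums per library and class of at least 10 cells were tested with edgeR 4.0.16 (TMM, filterByExpr, glmQLFit, Benjamini-Hochberg over all genes), with batch as a term. SE is the fold change over the root of F. Libraries were the replicates. p-values measure the spread between libraries, mostly of 1 tumor each, and intervals cover counting error only. The study's own cell-level test was not used.

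Alternatives were DESeq2 1.42.0, no filter, leaving out libraries, other cell filters, subtraction of free RNA, resolution 2, and other blocks. The fits of batch 2 without WT 5 or WT 4 were added after seeing the data. Members and lists were chosen with earlier results of these data known. Named further genes were those that passed, the 3 largest changes in each class, and Nfe2l2, Keap1 and Bach1. A further gene that this rule named is not reported here. Counts were also simulated with a dispersion of 0.1 for every gene, which was not estimated from these data. The recovery shares hold for that setting only. Changes of 1 and 2 on the log2 scale were recovered at 42% and 74% in macrophage-like sums (849 genes). The shares were 35% and 93% in tumor-like sums (11488 genes) and 30% and 70% in monocyte-like sums (94 genes). For the difference between classes (11289 genes) they were 1% and 8%. Motifs were searched on both strands of RefSeq promoters of GRCm38.p6, and gene positions are from GENCODE M21. The sources used here held no protein sequences.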

Additional observations from a re-analysis of the deposited data

Results flagged for a closer look

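In 6 of 50 groups of 4 libraries in batch 2 the highest or lowest library stood apart by Dixon's test. Chance alone flags about 1 in 20 groups of normally distributed values, a rate that need not hold for sums of 0 or 1 UMI. Hmox1 in tumor-like cells was at 93.2 CPM in WT 5 (623 UMIs), against 16.7 to 21.3 CPM in the other 3 WT libraries. Gsr in tumor-like cells was at 253 CPM in KO 4 (1221 UMIs), against 177 to 189 CPM in the other KO libraries. Ftl1 in macrophage-like cells was at 955 CPM in KO 1 (27 UMIs), against 642 to 691 CPM. The remaining flags rest on at most 1 UMI: Srxn1 at 15.1 CPM in macrophage-like cells of WT 5 and Nqo1 at 34.7 CPM in those of WT 1, with 0 in the other WT libraries, and Slc7a11 at 0 CPM in monocyte-like cells of KO 4, against 286 to 342 CPM.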

How the results depend on the processing

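Of 357 alternative values of 16 fold changes, 305 kept their direction and their side of the threshold, 42 changed sign and 10 newly passed it. In macrophage-like cells the count of genes called (0) was 13 with no filter, 5 in batch 2 alone, 7 in batch 2 without WT 4, and 0 to 5 on leaving out single libraries (5 without either batch 1 library, 1 without WT 4). Members called (0) were 2 in batch 2 alone, 2 in batch 2 without WT 4, and 0 to 2 on leaving out single libraries. Monocyte-like calls (0) were 2 with no filter and 1 with the replicate block, and tumor-like calls (0) were 1 with DESeq2 and 34 with no filter. For the difference between classes (1 call) the counts were 0 with DESeq2, 3 with no filter, 2 without the pooled libraries, 5 with free RNA subtracted, 0 in cells without a tumor-marker UMI, and 1 to 5 on leaving out single libraries (2 without WT 3, 4 without WT 4, 5 without WT 5), of which 0 to 1 were members (Prdx1 without WT 4). Members above the tumor-like level in macrophage-like cells numbered 5 over both batches and 8 in batch 2 alone. Those added in batch 2 were Gclm, Txnrd1 and Srxn1, at 1.08, 1.09 and 1.08 times. They rest on 21, 23 and 6 macrophage-like UMIs, too few to order the classes. The share over all genes is not given here, so the count is not a result about the members.

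Signs that changed belonged to values within about 1 SE of 0. In macrophage-like cells Fth1 (-0.03) was 0.10 with no filter, 0.067 in batch 2 alone, 0.070 without the pooled libraries, 0.031 with free RNA subtracted, 0.19 with the replicate block, 0.42 in batch 2 without WT 5 and 0.17 in batch 2 without WT 4, and -0.21 to 0.15 on leaving out single libraries (0.040 without KO 2+3). Ftl1 (-0.09) was 0.051 with no filter, 0.071, 0.15 and 0.35 in batch 2 alone, without WT 5 and without WT 4, and -0.24 to 0.078 on leaving out single libraries. In tumor-like cells Hmox1 (-0.28) was 0.44 with the block, 0.33 in batch 2 without WT 5, and -0.63 to 0.55 on leaving out single libraries. Gclm (0.00) was -0.019 with no filter, -0.051 in batch 2 alone, -0.034 without the pooled libraries, -0.032 with at least 500 UMIs, -0.036 with the block, and -0.074 to 0.11 on leaving out single libraries (-0.061 without KO 5+6). Txnrd1 (-0.01) was 0.018 with at least 500 UMIs, 0.011 with free RNA subtracted, 0.0049 with no batch term, 0.058 with the block, and -0.063 to 0.040 on leaving out single libraries. Gsr (-0.13) was 0.081 with the block, and Fth1 (0.06) was -0.054 to 0.18 on leaving out single libraries. The cause was not tested.

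Numbers 1 and 4 occur in both groups of batch 2, but deviations of same-numbered libraries did not move together (correlations -0.08 and -0.03 in macrophage-like, -0.25 and -0.37 in tumor-like sums). With so few shared numbers this gives no sign of a pairing but cannot exclude it. With the replicate block macrophage-like Hmox1 was at -0.44 and Prdx1 at -0.75, and 0 genes passed. The fit with at least 500 UMIs could not be made in monocyte-like cells. Low depth kept all members but Hmox1, Prdx1, Fth1 and Ftl1 out of the main fit in macrophage-like cells, and all 10 out of that in monocyte-like cells. It also limits Hmox1 and Prdx1, whose macrophage-like sums held 136 and 164 UMIs over the 8 libraries of batch 2.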

Other observations

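The gene that passed the test of the difference between classes was Mt2, a metallothionein that binds zinc and copper and responds to oxidants and metals. Its difference (the KO effect in macrophage-like minus that in tumor-like cells) was -2.76 ± 0.58 (SE; edgeR adjusted p = 0.0237), and DESeq2 called 0 genes. In batch 1 Mt2 was at 96.8 CPM in WT (71 UMIs) and 12.0 CPM in KO (10 UMIs) macrophage-like cells, and at 330 and 316 CPM in tumor-like cells. The macrophage-like sums of batch 2 held 0 to 2 Mt2 UMIs each, so the value rests on the batch 1 pair. It was among the leading genes of cluster m1_2, together with hemoglobin genes.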
